A study of Mus musculus with 14 samples.

Results

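The Adam and Adamts proteinases were followed at the RNA level in whole corneas of Klf5CN and WT mice at postnatal day 56 (PN56) and postnatal day 11 (PN11). Members were all probe sets of the array whose single gene symbol was Adam or Adamts, then a number and at most 1 letter, which gave 74 of 45101 probe sets and 43 genes. Of these, 46 probe sets (28 genes) were Adam and 28 probe sets (15 genes) were Adamts. A further 5 probe sets carry a family symbol beside a second symbol and were left out. The genes Adamts2, Adamts13, Adamts14 and Adamts17 had no probe set under those symbols in the annotation used and were not analysed here. Older symbols were not searched for. The study did measure Adamts2, and lists it among the genes that decreased most from PN11 to PN56 in WT corneas.

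The study asked how the corneal transcriptome changes as the eye matures after the lids open, and what the loss of the transcription factor Klf5 does to it. Each of the 14 arrays (Affymetrix MG 430 2) held the RNA of 1 mouse, both corneas pooled, with 4 Klf5CN and 4 WT mice at PN56 and 3 Klf5CN and 3 WT mice at PN11. Klf5CN mice were Klf5 loxP/loxP with 1 Le-Cre transgene, and the mice called WT were their Klf5 loxP/loxP littermates without Cre, so both genotypes carried the floxed allele, on a mixed background. Le-Cre is active in tissues of the surface ectoderm of the eye (corneal and conjunctival epithelium, lens and lid skin), so the stroma, corneal endothelium, vessels and blood cells of a Klf5CN cornea kept a functional Klf5 gene.

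Adam proteins are membrane-anchored and many are sheddases, which cut the extracellular part off growth factor precursors, cytokines, receptors and adhesion molecules. Adamts proteins are secreted, bind the matrix through thrombospondin motifs, and cleave proteoglycans, procollagens and microfibril proteins. Several Adam genes encode proteins without a working catalytic site that act as cell surface binding partners, and a large subgroup is used in sperm and the male reproductive tract. In the cornea, sheddases release ligands of the EGF receptor during epithelial wound repair, and secreted proteinases take part in remodelling of the stroma.

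Promoters are shown for Adam8, whose signal was raised in Klf5CN corneas at PN56 and PN11, and Adamts18. The tested probe set of Adamts18 was the one member that passed the test of the difference between ages, but it had no Present call at PN56. Each line gives the 250 bases upstream of the RefSeq start site on the coding strand (build GRCm38.p6). The capitals mark CACCC or its reverse complement GGGTG, a motif bound by Kruppel-like factors.
Adam8 (chr7:139992563-139992812, minus strand): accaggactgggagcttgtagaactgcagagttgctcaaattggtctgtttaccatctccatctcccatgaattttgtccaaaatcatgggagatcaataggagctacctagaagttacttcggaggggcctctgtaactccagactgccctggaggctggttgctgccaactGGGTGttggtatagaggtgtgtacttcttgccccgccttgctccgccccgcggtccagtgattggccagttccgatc
Adamts18 (chr8:113848840-113849089, minus strand): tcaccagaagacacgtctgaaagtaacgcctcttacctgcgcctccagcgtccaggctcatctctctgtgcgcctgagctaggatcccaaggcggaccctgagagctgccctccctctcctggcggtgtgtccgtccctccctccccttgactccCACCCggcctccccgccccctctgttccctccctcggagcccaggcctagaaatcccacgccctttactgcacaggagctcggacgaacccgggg
Each of these promoters held 1 match. CACCC stood on either strand in 52.0% of all 32851 promoters of this length, so a match describes the letters and is not a binding site. The reference held 15 promoters for 13 of the tested family genes. Of these promoters 14 had a match, and 12 of these genes had a match in at least 1 promoter. Whether this differs from the share of all promoters was not tested.

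Signal is the brightness of a probe set after the authors scaled every array to the same trimmed mean, and is given here as log2 with signals under 10 set to 10 (log2 3.32, called the lowest value below). Levels of different probe sets are not comparable, so each probe set is compared only with itself. Probe sets with a signal over 20 on 3 or more arrays were tested, and one was called higher or lower at an adjusted p below 0.05 in limma with group means more than 2-fold apart. Where the authors' software called a probe set Present (detected) on no array of the dimmer group, the log2 difference of the measured values is given with no fold, since they may lie at background. In bulk RNA, fewer cells of a type and less RNA per cell cannot be told apart.

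The deleted gene followed the labels. Klf5 probe set 1430255_at was at 6.14, 3.32, 5.15 and 4.41 in Klf5CN against 10.21, 10.21, 10.56 and 9.91 in WT corneas at PN56, and at 3.67, 3.74 and 4.19 in Klf5CN against 9.21, 8.91 and 9.18 in WT corneas at PN11. Another, 1451021_a_at, was also lower in Klf5CN (-4.96 at PN56 and -3.39 at PN11), whereas 1451739_at differed by -0.34 at PN56 (adjusted p = 0.29) and -0.83 at PN11 (adjusted p = 0.05). A pair of Klf5CN arrays stood apart in the ratio of the 3′ to the 5′ control probe sets of Actb, a sign of RNA integrity: PN56 replicate 4 (log2 1.4) and PN11 replicate 3 (log2 1.62), against 0.23 to 0.47 on the other arrays. The same ratio of Gapdh was 0.65 on PN56 replicate 4 and 6.18 on PN11 replicate 3, against -0.54 to -0.24 elsewhere. Without this pair the sign of the Klf5CN difference turned in 1 tested member at PN56 and 8 at PN11, none of them called. Of 10 leukocyte and myeloid markers, 8 were higher in Klf5CN corneas at PN56 and 8 at PN11. Their summed signal ran from 2080 to 6640 in Klf5CN and from 690 to 1290 in WT corneas at PN56, and from 6430 to 10500 in Klf5CN and 1880 to 2390 in WT corneas at PN11. The corneal epithelial markers, which include Krt12 and Pax6, summed to 35100 to 62900 in Klf5CN and 32800 to 38900 in WT corneas at PN56, with 0 of 7 called. At PN11 they summed to 29900 to 35500 in Klf5CN and 29800 to 36000 in WT corneas, with Epcam called higher (1.19, adjusted p = 0.0081). Each marker was read by its probe set with the highest mean signal. That of Pax6 differed by -0.52 at PN11 (adjusted p = 0.16), whereas the study lists Pax6 among the genes most decreased in Klf5CN corneas at PN11. The same rule reads Klf5 by 1451739_at, which was not called. These sums therefore cannot show that epithelial RNA was unchanged.

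Of the 74 probe sets, 42 passed the filter on low signal, for 27 genes (13 Adam and 14 Adamts). The other 32 probe sets never exceeded a signal of 24.4, and 22 of them were called Present by the authors' software on no array. Among the 16 genes known for roles in sperm or the male reproductive tract, 15 had no probe set over the filter. The exception was Adam4, which did not pass the test in any comparison and was called Present on 1 of 14 arrays. Of 5 male germ cell markers, none was detected well enough to be tested. Of the tested probe sets, 14 (9 genes) were called Present on all 14 arrays, among them probe sets of Adam9, Adam10, Adam17, Adamts1, Adamts3 and Adamts5. Adamts16 probe set 1441841_at was called Present on none.

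At PN56, 10 of the 42 tested probe sets (9 genes) were higher in Klf5CN corneas and 0 were lower, against 5.67% and 1.44% of all 29416 probe sets tested. At an unadjusted p below 0.05 in limma, 1 member was lower (Adamts3), and the rank test of the study's methods, without its criterion on pairwise changes, called 0 lower. The median difference over the 42 was 0.46 on the log2 scale, against 0.02 over all probe sets. At PN11, 5 probe sets (4 genes) were higher and 1 was lower, against 2.77% and 1.16% of all probe sets, with a median of 0.41 against 0.00. The effect of the deletion differed between PN56 and PN11 in 1 of 42 probe sets (0.211% of all probe sets in that direction), and in 0 in the other direction (0.167% of all, with 4 of the 42 at an unadjusted p below 0.05). The probe set called with genotype at both ages was that of Adam8, and for genes called at one age only, the test of the difference between ages was passed by Adamts18 alone. The tested probe set of Adamts18 was at the lowest value on all WT arrays at PN56, where a lower signal in Klf5CN corneas could not be measured. Without both arrays with a high Actb ratio, an alternative added after seeing the data, 7 were higher and 0 lower at PN56 (Adam23, Adamts15 and Adamts9 probe set 1430352_at were lost) and 5 and 1 at PN11 (Adamts20 was lost and Adamts4 probe set 1452595_at gained). Of the 10 PN56 calls, Adam8 and Adam28 were kept with signals under 32 set to 32, and those and Adam12 and Adamts12 in a fit of the PN56 groups alone. The PN56 count was 6 without WT replicate 1, WT replicate 4, Klf5CN replicate 1 or Klf5CN replicate 2 of that age, and the PN11 count of higher probe sets was 2 without WT replicate 1 and 3 without WT replicate 3, Klf5CN replicate 1 or Klf5CN replicate 2 of that age.

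**Figure D1:**
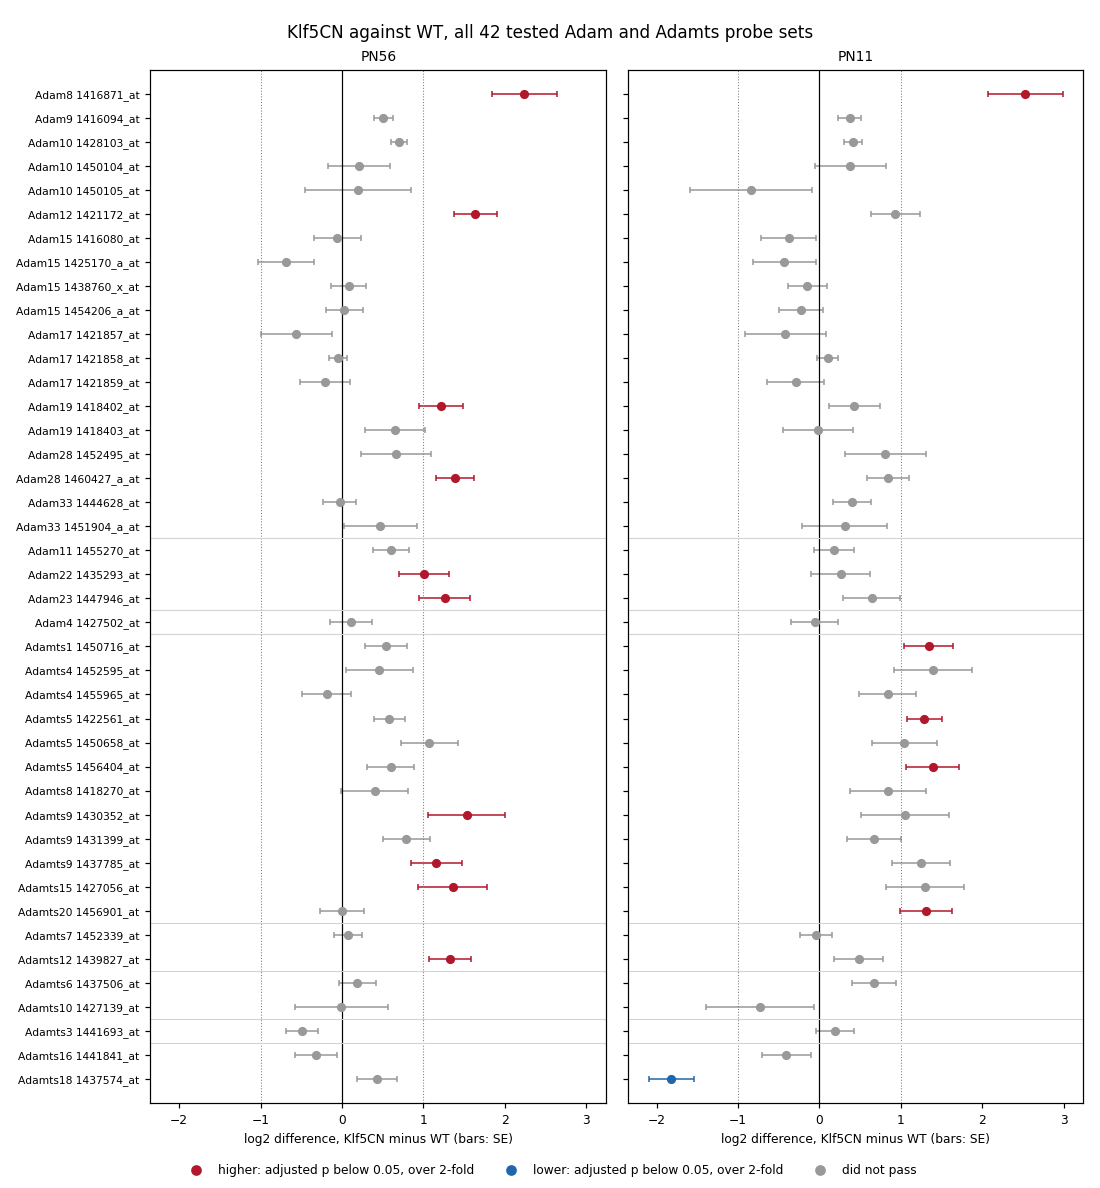
Log2 difference between Klf5CN and WT corneas (x axis, Klf5CN minus WT) for the 42 tested probe sets (y axis), at PN56 (left, 4 against 4 arrays) and PN11 (right, 3 against 3 arrays). Points are limma estimates, bars their SE, dotted lines mark a 2-fold difference, and grey lines separate the groups by known role. At PN56 10 probe sets are red and none is blue, at PN11 5 are red and Adamts18 is blue.

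Among the catalytic membrane Adam genes, Adam8, a sheddase best known from neutrophils and macrophages, had the largest difference. Adam8 probe set 1416871_at was at 9.31, 9.13, 7.80 and 8.35 in Klf5CN against 5.60, 5.88, 7.60 and 6.55 in WT corneas at PN56, a difference of 2.24 ± 0.40 (SE) or 4.74-fold (adjusted p = 0.0018). At PN11 it was at 8.13, 8.04 and 7.40 in Klf5CN against 5.01, 5.27 and 5.70 in WT corneas, a difference of 2.53 ± 0.46 (adjusted p = 0.0051). The genotypes did not overlap at either age, although WT replicate 3 at PN56 lay just below Klf5CN replicate 3. The difference between ages was -0.29 ± 0.61 (adjusted p = 0.91). The call held at both ages under every alternative run. Adam8 was called Present on 4 of 4 Klf5CN and 1 of 4 WT arrays at PN56 and on 3 of 3 Klf5CN and 0 of 3 WT arrays at PN11. Between genotypes, 8 of the 10 leukocyte and myeloid markers were also higher in Klf5CN corneas at PN56 and 8 at PN11. Itgam was not called (0.35 at PN56 and -0.61 at PN11). With age the median of these markers was -0.71 in Klf5CN and -1.61 in WT corneas, but they went both ways. In Klf5CN corneas 1 of the 10 was called higher and 3 lower at PN56, against 4.8% and 13.4% of 13660 genes. In WT corneas 1 was called higher and 5 lower, against 4.37% and 15.6%. The higher one was Itgam in both genotypes (3.07 in Klf5CN and 2.11 in WT corneas). Adam8 differed with age by 0.79 in Klf5CN and 1.08 in WT corneas, neither of them called. The part of leukocytes in the Adam8 result was not tested.

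Adam28, a membrane proteinase first described in lymphocytes, was higher in Klf5CN corneas at PN56 in 1 of its 2 tested probe sets. Adam28 probe set 1460427_a_at was at 7.0, 7.78, 6.52 and 6.61 in Klf5CN against 5.51, 5.76, 5.54 and 5.51 in WT corneas, without overlap, a difference of 1.39 ± 0.23 (2.63-fold, adjusted p = 0.00095) that held under every alternative. At PN11 all 3 Klf5CN arrays (6.99, 6.95 and 7.19) also lay above the WT arrays (6.23, 6.31 and 6.06), but the difference of 0.84 ± 0.26 did not pass (adjusted p = 0.073). The second probe set, 1452495_at, differed by 0.66 at PN56 and 0.81 at PN11, with overlap at both ages, and did not pass. Of the 2 tested T cell markers Cd3g was higher in Klf5CN corneas at PN56 and PN11 (1.97 and 2.09) and Cd8a was not called, and of the 2 tested B cell markers Cd79b was higher at PN56 (1.57). The summed T cell signal was low, from 83.7 to 122 in Klf5CN and 34.7 to 71.5 in WT corneas at PN56, and its part in the Adam28 result was not tested.

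Adam12 and Adam19, the meltrins alpha and beta, which are strong in mesenchyme of growing tissues, were higher in Klf5CN corneas at PN56. Adam12 probe set 1421172_at was at 5.58, 5.29, 4.17 and 4.81 in Klf5CN corneas, whereas all 4 WT arrays were at the lowest value, a difference of 1.64 ± 0.26 on the log2 scale (adjusted p = 0.00089). At PN11 its values were 6.03, 5.58 and 5.69 in Klf5CN against 4.59, 4.90 and 5.02 in WT corneas, with no overlap, but 0.93 ± 0.30 did not pass (adjusted p = 0.088). The gene was called Present on 2 of 4 Klf5CN and 0 of 4 WT arrays at PN56 and on all arrays at PN11. The PN56 call was lost with signals under 32 set to 32 (0.22, adjusted p = 0.31), which covers most of these values.

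Adam19 probe set 1418402_at was at 6.49, 6.10, 5.35 and 6.26 in Klf5CN against 4.86, 4.77, 5.54 and 4.16 in WT corneas at PN56, a difference of 1.22 ± 0.27 (2.33-fold, adjusted p = 0.0075). The groups overlapped by 1 array, WT replicate 3, which was above Klf5CN replicate 3. Without WT replicate 4 the difference was 0.99 (adjusted p = 0.022), just under 2-fold. The PN11 values were 7.64, 7.76 and 7.64 in Klf5CN against 7.04, 7.39 and 7.33 in WT corneas (0.43 ± 0.31, adjusted p = 0.49). The dimmer probe set 1418403_at did not pass at either age.

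None of the probe sets of the main ectodomain sheddases Adam10 and Adam17 was called with genotype. Adam10, the principal cleaving enzyme of Notch, E-cadherin and the amyloid precursor, was read by 3 probe sets, of which 1428103_at was at 11.03, 11.10, 10.81 and 10.86 in Klf5CN against 10.27, 10.25, 10.34 and 10.16 in WT corneas at PN56. At PN11 it was at 10.57, 10.61 and 10.55 in Klf5CN against 10.05, 10.30 and 10.14 in WT corneas. The groups did not overlap and the differences passed the adjusted p but not the 2-fold limit (0.70 ± 0.10, 1.62-fold, adjusted p = 0.00031 at PN56; 0.41 ± 0.11, 1.33-fold, adjusted p = 0.041 at PN11). Its other probe sets, 1450104_at and 1450105_at, differed by 0.21 and 0.20 at PN56 and by 0.38 and -0.84 at PN11, with adjusted p from 0.59 to 0.88. These values rest on the arrays with a high Actb ratio: without that pair they were 0.68 and 0.66 at PN56 (adjusted p = 0.039 and 0.0097) and 0.65 and 0.40 at PN11 (adjusted p = 0.13 and 0.20). Adam17, which releases TNF and several EGF receptor ligands, differed between the genotypes by -0.56 to -0.05 at PN56 and by -0.42 to 0.10 at PN11 over its 3 probe sets, with adjusted p from 0.43 to 0.79. Without that pair the range was -0.14 to -0.05 at PN56 and -0.01 to 0.29 at PN11, where 1421857_at turned to 0.24 and 1421859_at to 0.29. Adam9 probe set 1416094_at, meltrin gamma, was 1.42-fold higher in Klf5CN corneas at PN56 (0.51 ± 0.12, adjusted p = 0.012, no overlap) and differed by 0.37 at PN11 (adjusted p = 0.15). Without a minimum fold, Adam10 and Adam9 would bring the PN56 count to 12 probe sets (9.27% of all probe sets by that rule). The 4 probe sets of Adam15 and the 2 of Adam33 did not pass at either age.

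The 3 non-catalytic Adam genes are known from the nervous system, where Adam22 and Adam23 bind secreted LGI proteins at synapses and along axons. Adam23 probe set 1447946_at was at 4.99, 5.19, 4.38 and 5.93 in Klf5CN against 3.72, 3.81, 4.57 and 3.32 in WT corneas at PN56, a difference of 1.26 ± 0.31 (2.40-fold, adjusted p = 0.012), with WT replicate 3 inside the Klf5CN range. Without Klf5CN replicate 4, the array with the high Actb ratio and the highest value, it was 0.99 (adjusted p = 0.031), short of 2-fold. At PN11 its values were 5.98, 6.14 and 5.93 in Klf5CN against 5.42, 5.48 and 5.24 in WT corneas, with no overlap (0.64 ± 0.35, adjusted p = 0.34).

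Adam22 probe set 1435293_at was at 5.93, 6.27, 4.73 and 4.96 in Klf5CN against 4.0, 4.54, 4.83 and 4.48 in WT corneas at PN56 (1.01 ± 0.31, 2.01-fold, adjusted p = 0.039). The groups overlapped, and the call was lost when any of 7 single arrays was left out, with adjusted p from 0.051 to 0.12. These were WT replicates 1, 2 and 4 and Klf5CN replicates 1 and 2 at PN56, and WT replicate 2 and Klf5CN replicate 2 at PN11, whose removal left 0.74 to 1.04 on the log2 scale. The PN11 values were 7.29, 7.33 and 7.03 in Klf5CN against 7.22, 7.07 and 6.57 in WT corneas (0.26 ± 0.36, adjusted p = 0.75). Adam11 did not pass (0.60 at PN56, adjusted p = 0.078, and 0.18 at PN11).

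**Figure D2:**
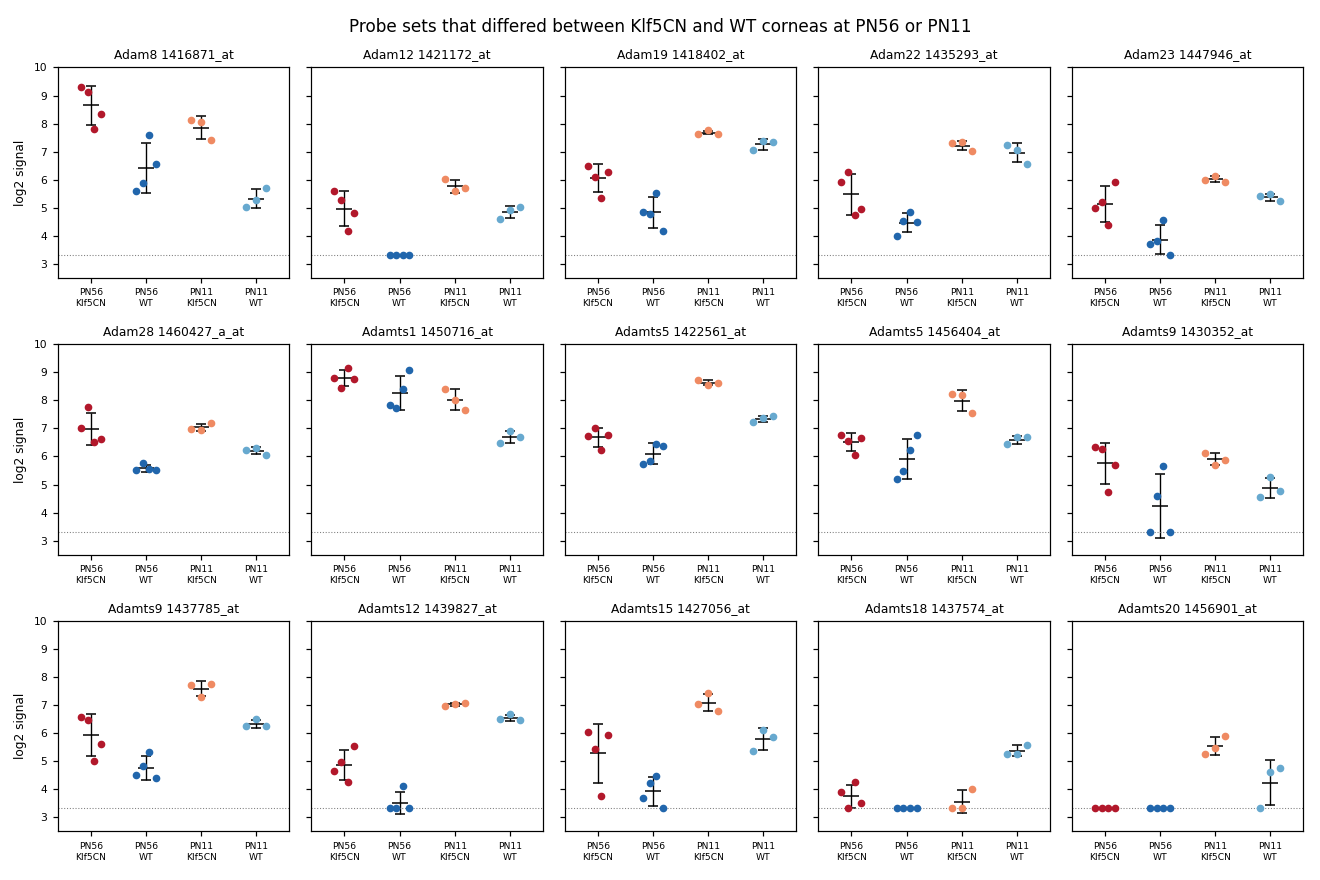
Log2 signal on every array (y axis) for the 15 probe sets called between Klf5CN and WT corneas at PN56 or PN11, by group (x axis). Points are arrays, black bars the mean and SD of 4 (PN56) or 3 (PN11) arrays, and the dotted line is the lowest value of 3.32. The Adam8 arrays of Klf5CN corneas lie above those of WT corneas at PN56 and PN11, and Adamts18 stands clear of the lowest value in WT corneas at PN11, at 5.26 to 5.60.

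The proteoglycan-cleaving Adamts genes, which cut aggrecan and versican, gave 3 of the 10 calls at PN56 and 4 of the 6 at PN11. Of their 12 tested probe sets (7 genes), 3 were higher in Klf5CN corneas at PN56 and 4 at PN11, against 5.67% and 2.77% of all probe sets, and none was lower. The difference was above 0 in 10 of 12 at PN56 and 12 of 12 at PN11, with a median of 0.59 at PN56 and 1.27 at PN11.

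Adamts5, the main aggrecan-cleaving enzyme of mouse cartilage, was higher at PN11 in 2 of its 3 probe sets. Adamts5 probe set 1422561_at was at 6.74, 7.0, 6.22 and 6.77 in Klf5CN against 5.72, 5.85, 6.45 and 6.38 in WT corneas at PN56 (0.58 ± 0.19, adjusted p = 0.054). At PN11 the values were 8.73, 8.56 and 8.61 in Klf5CN against 7.23, 7.36 and 7.45 in WT corneas (1.29 ± 0.22, 2.44-fold, adjusted p = 0.0038), a call that held under every alternative. The genotypes overlapped at PN56 and stood apart at PN11. The second called probe set, 1456404_at, was at 6.77, 6.56, 6.07 and 6.67 in Klf5CN against 5.21, 5.48, 6.23 and 6.76 in WT corneas at PN56, with overlap (0.60, adjusted p = 0.18). Its PN11 values were 8.22, 8.19 and 7.56 in Klf5CN against 6.44, 6.68 and 6.68 in WT corneas, without overlap (1.39 ± 0.33, 2.61-fold, adjusted p = 0.023). Leaving out any PN11 array but Klf5CN replicate 3 lost this second call (adjusted p from 0.059 to 0.10, 1.27 to 1.43 on the log2 scale), as did a fit with no filter on low signal (adjusted p = 0.071). The third, 1450658_at, differed by 1.07 at PN56 (adjusted p = 0.052) and 1.04 at PN11 (adjusted p = 0.16, no overlap).

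Adamts1, an inflammation-induced proteinase of versican and aggrecan, was higher in Klf5CN corneas at PN11. Adamts1 probe set 1450716_at was at 8.81, 8.45, 9.15 and 8.76 in Klf5CN against 7.85, 7.72, 8.39 and 9.07 in WT corneas at PN56, with overlap (0.54 ± 0.26, adjusted p = 0.18). At PN11 it was at 8.41, 8.03 and 7.65 in Klf5CN against 6.47, 6.92 and 6.68 in WT corneas, without overlap (1.34 ± 0.30, 2.54-fold, adjusted p = 0.015). The PN11 call was lost without WT replicate 1, WT replicate 3 or Klf5CN replicate 1 of that age (1.15 to 1.34, adjusted p from 0.055 to 0.080) and with no filter on low signal (adjusted p = 0.056).

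Adamts20, the gene of the belted coat mutation in mice, was higher in Klf5CN corneas at PN11, at a low signal. Adamts20 probe set 1456901_at was at the lowest value on all 8 arrays at PN56, so that no fold can be given there. At that age it was still called Present on 3 of 4 Klf5CN and 1 of 4 WT arrays. The PN11 values were 5.27, 5.47 and 5.90 in Klf5CN against 3.32, 4.62 and 4.77 in WT corneas, without overlap (1.31 ± 0.32, 2.48-fold, adjusted p = 0.023). Leaving out WT replicate 1, Klf5CN replicate 2 or Klf5CN replicate 3 at PN11 lost the call (0.85 to 1.34, adjusted p from 0.057 to 0.084), as did leaving out both arrays with a high Actb ratio (1.13, adjusted p = 0.073) or taking that ratio as a covariate (1.19, adjusted p = 0.065). It was also lost with signals under 32 set to 32 (0.55), with log2 of signal plus 16 (0.85) and in a fit of the PN11 groups alone (adjusted p = 0.15).

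Adamts9, a versican-cleaving relative of Adamts20, was higher in Klf5CN corneas at PN56 in 2 of its 3 probe sets. Adamts9 probe set 1430352_at was at 6.34, 6.27, 4.75 and 5.68 in Klf5CN against 3.32, 4.60, 5.67 and 3.32 in WT corneas at PN56 (1.53 ± 0.47, 2.89-fold, adjusted p = 0.039). At PN11 it was at 6.13, 5.71 and 5.89 in Klf5CN against 4.57, 5.26 and 4.77 in WT corneas (1.05 ± 0.54, adjusted p = 0.30). The groups overlapped at PN56, where WT replicate 3 was close to the Klf5CN arrays, and not at PN11. Probe set 1437785_at was at 6.59, 6.48, 5.02 and 5.62 in Klf5CN against 4.50, 4.82, 5.34 and 4.39 in WT corneas at PN56 (1.16 ± 0.31, adjusted p = 0.021, with no WT array called Present), again with overlap. At PN11 the same probe set was at 7.74, 7.29 and 7.76 in Klf5CN against 6.27, 6.51 and 6.26 in WT corneas, without overlap, and 1.25 ± 0.36 just missed the threshold (adjusted p = 0.053). Both PN56 calls could be lost by leaving out 1 array. That of 1430352_at was lost when any of 8 arrays was left out (adjusted p from 0.051 to 0.13). That of 1437785_at was lost with any of 4 (WT replicates 1 and 4 and Klf5CN replicates 1 and 2 at PN56, 0.94 to 1.08, adjusted p from 0.059 to 0.072). For 1430352_at the 8 were every array at PN56 but WT replicate 3 and Klf5CN replicate 3, and WT replicates 1 and 3 at PN11 (1.23 to 1.66). Without both arrays with a high Actb ratio, 1430352_at gave 1.56 (adjusted p = 0.065). The third probe set, 1431399_at, differed by 0.79 at PN56 (adjusted p = 0.077, no overlap) and 0.67 at PN11.

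Adamts15, another proteoglycan-cleaving enzyme, had close estimates at PN56 and PN11. Adamts15 probe set 1427056_at was at 6.04, 5.43, 3.77 and 5.93 in Klf5CN against 3.70, 4.22, 4.47 and 3.32 in WT corneas at PN56, with overlap (1.36 ± 0.42, 2.58-fold, adjusted p = 0.040). At PN11 it was at 7.06, 7.42 and 6.80 in Klf5CN against 5.37, 6.13 and 5.88 in WT corneas, without overlap (1.30 ± 0.48, adjusted p = 0.14). The difference between ages was 0.06 ± 0.64 (adjusted p = 0.98). The PN56 call was lost when any of 9 single arrays was left out (1.12 to 1.46, adjusted p from 0.051 to 0.12), which were every PN56 array but WT replicate 3 and Klf5CN replicate 3, and WT replicates 2 and 3 and Klf5CN replicate 1 at PN11. It was also lost without both arrays with a high Actb ratio (1.15, adjusted p = 0.099). The 2 probe sets of Adamts4, an aggrecan-cleaving enzyme induced by interleukin 1, were higher on every Klf5CN than on every WT array at PN11 but did not pass (1.39 and 0.84, adjusted p = 0.11 and 0.19, the first 1.83 with adjusted p = 0.026 without both arrays with a high Actb ratio), and Adamts8 did not pass at either age (0.40 at PN56 and 0.84 at PN11).

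Of the Adamts genes with other substrates, Adamts12 and Adamts18 were called. Adamts12 cleaves the cartilage matrix protein Comp and was higher in Klf5CN corneas at PN56: Adamts12 probe set 1439827_at was at 4.67, 4.96, 4.26 and 5.53 in Klf5CN against 3.32, 3.32, 4.12 and 3.32 in WT corneas (1.33 ± 0.26, 2.52-fold, adjusted p = 0.0031), without overlap. The PN11 values were 6.97, 7.05 and 7.08 in Klf5CN against 6.51, 6.68 and 6.47 in WT corneas, without overlap (0.48 ± 0.30, adjusted p = 0.40). Its relative Adamts7, the microfibril-associated Adamts6 and Adamts10, the procollagen N-proteinase Adamts3 and Adamts16 did not pass at either age, with differences from -0.49 to 0.19 at PN56 and from -0.73 to 0.67 at PN11, where the -0.73 of Adamts10 was 0.31 without both arrays with a high Actb ratio. The Adamts12 call was lost with signals under 32 set to 32 (0.13, adjusted p = 0.49).

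Adamts18, whose loss in humans causes an eye syndrome with small corneas, was the one member called lower in Klf5CN corneas, at PN11. Adamts18 probe set 1437574_at was at 3.92, 3.32, 4.26 and 3.50 in Klf5CN corneas at PN56, and all 4 WT arrays of that age were at the lowest value (0.43 ± 0.24, adjusted p = 0.25), with 0 of 8 arrays called Present. At PN11 it was at 3.32, 3.32 and 4.03 in Klf5CN against 5.27, 5.26 and 5.60 in WT corneas, without overlap (-1.82 ± 0.28, adjusted p = 0.0016), and was called Present on 0 of 3 Klf5CN and 3 of 3 WT arrays. The difference between the ages was 2.24 ± 0.37 (PN56 minus PN11, adjusted p = 0.016). With all 4 WT arrays at the lowest value at PN56, a lower signal in Klf5CN corneas could not be measured at that age. The call of the difference between ages was lost without WT replicate 1, WT replicate 3 or Klf5CN replicate 2 at PN11 (2.13 to 2.30, adjusted p from 0.052 to 0.057) and with log2 of signal plus 16 (1.46, adjusted p = 0.070). With signals under 32 set to 32 the PN11 difference was -0.37 (adjusted p = 0.0089), so its size rests on values near the lowest. Another 2 probe sets of this gene were below the filter.

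More members were called with age than with genotype, which also held over all probe sets tested. In Klf5CN corneas 6 of 42 probe sets (3 genes) were higher and 16 (12 genes) were lower at PN56 than at PN11, against 10.4% and 10.6% of all probe sets, with a median of -0.55 against 0.06. In WT corneas 6 (4 genes) were higher and 16 (14 genes) were lower, against 10.2% and 12.3% of all probe sets, with a median of -0.65 against 0.00. In both genotypes the higher count lay closer to the share of all probe sets than the lower count did. Without both arrays with a high Actb ratio, 5 were higher and 19 lower in Klf5CN corneas: Adam17 probe set 1421859_at was lost among the higher, and Adam15 probe set 1438760_x_at (-1.02), Adam23 (-1.21) and Adamts10 were added to the lower. The Adamts genes made up 12 of the 16 lower probe sets in Klf5CN and 10 of 16 in WT corneas. The comparisons by age and by genotype share arrays, so their values are given side by side and not correlated.

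**Figure D3:**
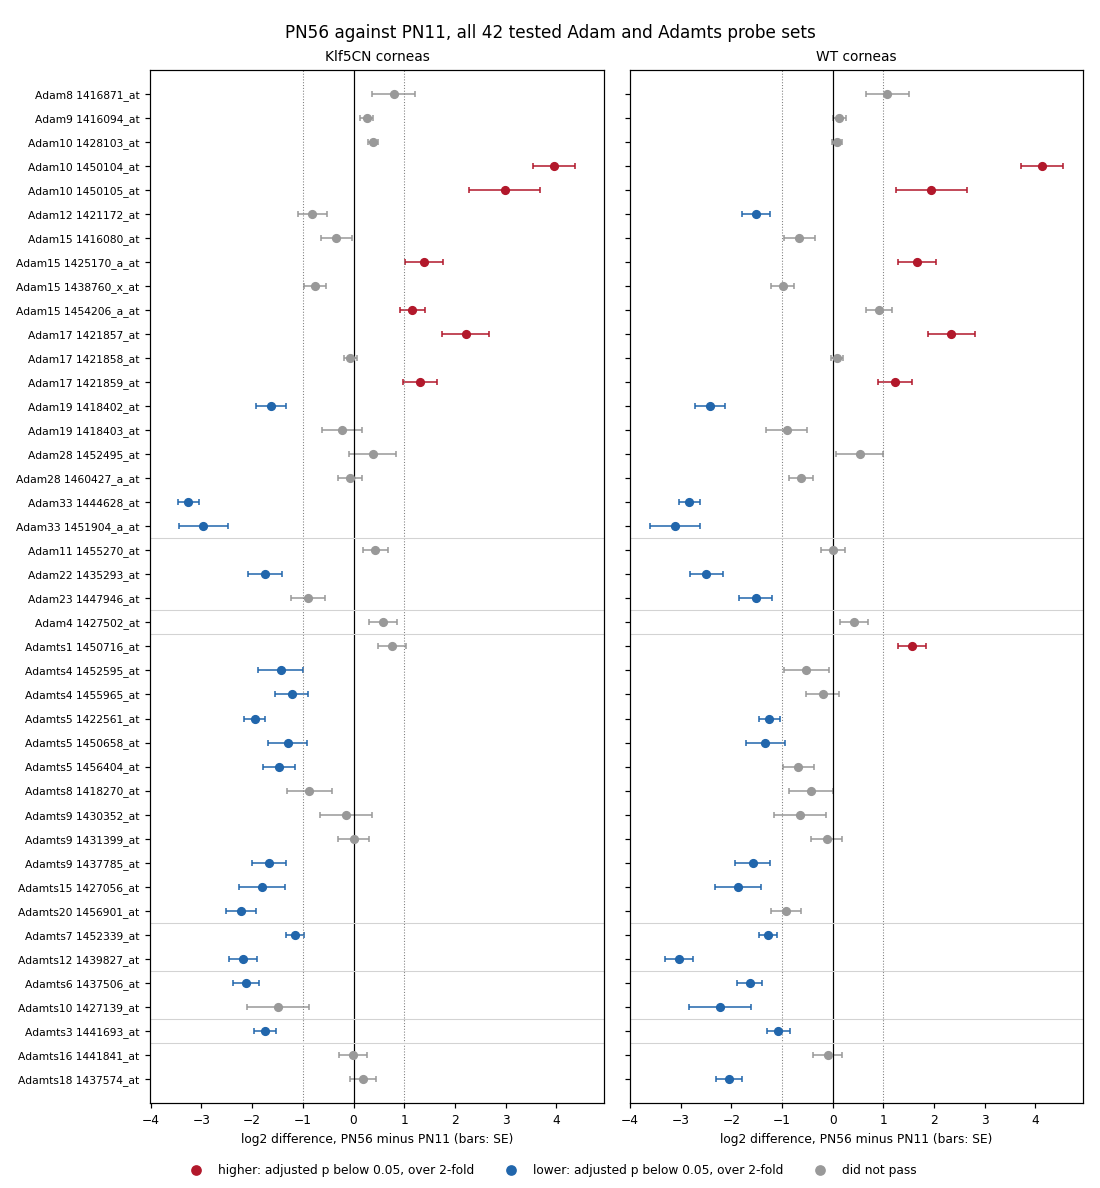
Log2 difference between PN56 and PN11 (x axis, PN56 minus PN11) for the 42 tested probe sets (y axis) in Klf5CN (left) and WT corneas (right), 4 against 3 arrays in each. Points are limma estimates, bars their SE, dotted lines mark a 2-fold difference. The 6 higher probe sets in Klf5CN corneas are 2 each of Adam10, Adam17 and Adam15, those in WT corneas 2 each of Adam10 and Adam17 and 1 each of Adam15 and Adamts1, and 16 probe sets are lower in each genotype.

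Adam33, a mesenchymal sheddase linked in human genetics to asthma, was lower at PN56 in both of its probe sets and both genotypes. Adam33 probe set 1444628_at was at 3.32, 3.32, 3.32 and 3.51 at PN56 against 6.54, 6.87 and 6.49 at PN11 in Klf5CN corneas (-3.26 ± 0.21, adjusted p = 9.3e-08). In WT corneas it was at 3.32, 3.32, 3.32 and 3.63 at PN56 against 6.01, 6.66 and 6.02 at PN11 (-2.83 ± 0.21, adjusted p = 1.8e-07). Nearly all PN56 arrays were at the lowest value, and the ages did not overlap in either genotype. The second probe set, 1451904_a_at, was at 5.36, 3.36, 3.32 and 5.67 at PN56 against 7.42, 7.49 and 7.26 at PN11 in Klf5CN corneas (-2.96 ± 0.49), and at 4.22, 4.38, 3.82 and 3.43 at PN56 against 7.01, 7.32 and 6.89 at PN11 in WT corneas (-3.11 ± 0.49, adjusted p = 0.00014). Neither probe set was called Present on any PN56 array, and both were called Present on all 6 PN11 arrays.

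Adamts12, with the array values given above, fell by 2.18 ± 0.28 in Klf5CN corneas (4.53-fold lower, adjusted p = 3.1e-05) and fell by 3.03 ± 0.28 in WT corneas (8.18-fold lower, adjusted p = 1.2e-06). Adam22 fell by 1.75 ± 0.33 in Klf5CN (adjusted p = 0.00082) and fell by 2.49 ± 0.33 in WT corneas (adjusted p = 3.5e-05). Adam19 fell by 1.63 ± 0.29 in Klf5CN (adjusted p = 0.00052) and fell by 2.42 ± 0.29 in WT corneas (adjusted p = 1.5e-05). In each of these 3 genes the PN56 and PN11 arrays did not overlap in either genotype, and the difference between genotypes in the fall did not pass (0.75 to 0.85, adjusted p from 0.47 to 0.63). Adamts15 fell by 1.80 in Klf5CN and fell by 1.87 ± 0.45 in WT corneas, and Adamts9 probe set 1437785_at fell by 1.67 in Klf5CN and fell by 1.58 ± 0.34 in WT corneas. Adam12 and Adam23 were lower by less than 2-fold in Klf5CN corneas (-0.81 and -0.90) and fell past the threshold in WT corneas (-1.51 and -1.52), a difference between genotypes of 0.71 and 0.63 that did not pass (adjusted p = 0.58 and 0.69).

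Adamts10 and Adamts6, which act on fibrillin microfibrils, were also lower at PN56. Adamts10 probe set 1427139_at was at 5.71, 5.77, 4.81 and 7.01 at PN56 against 8.33, 8.39 and 5.23 at PN11 in Klf5CN corneas (-1.49 ± 0.61, adjusted p = 0.066). In WT corneas it was at 5.81, 6.04, 5.88 and 5.61 at PN56 against 7.93, 8.20 and 8.03 at PN11 (-2.22 ± 0.61, 4.65-fold lower, adjusted p = 0.0091). In Klf5CN corneas the overlap between ages came from the arrays with a high Actb ratio, PN56 replicate 4 and PN11 replicate 3, and without both the difference was -2.93 (adjusted p = 2.1e-06). In WT corneas the ages did not overlap. Adamts6 probe set 1437506_at was at 3.50, 3.91, 3.32 and 3.32 at PN56 against 5.38, 5.86 and 5.65 at PN11 in Klf5CN corneas (-2.12 ± 0.25, adjusted p = 1.6e-05). In WT corneas all 4 PN56 arrays were at the lowest value against 4.37, 5.15 and 5.35 at PN11 (-1.64, adjusted p = 0.00012), and the gene was called Present on 0 WT arrays at either age. With signals under 32 set to 32, Adamts6 was no longer called in either genotype (-0.63 in Klf5CN and -0.17 in WT corneas), nor were Adam12 (-0.01), Adam23 (-0.38), Adamts15 (-0.79) and Adamts18 (-0.37) in WT corneas.

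Adamts3, which removes the N-terminal propeptide of procollagens and activates the lymphatic growth factor Vegfc, was lower at PN56 in both genotypes. Adamts3 probe set 1441693_at was at 4.80, 5.16, 5.27 and 5.26 at PN56 against 6.73, 6.54 and 7.34 at PN11 in Klf5CN corneas (-1.75 ± 0.22, 3.36-fold lower, adjusted p = 2.4e-05). In WT corneas it was at 5.56, 5.36, 5.96 and 5.55 at PN56 against 6.60, 6.76 and 6.68 at PN11 (-1.07 ± 0.22, 2.10-fold lower, adjusted p = 0.0011). The ages did not overlap in either genotype. Without WT replicate 2 at PN56 the WT difference was -0.99 (adjusted p = 0.0045), just under 2-fold. Adamts7 fell by 1.15 in Klf5CN and fell by 1.27 in WT corneas. Adamts5 fell past the threshold in 3 of 3 probe sets in Klf5CN (-1.95 to -1.30) and in 2 of 3 in WT corneas (-1.33 to -0.68 over the 3). Adamts18 differed by 0.19 in Klf5CN corneas and fell by 2.05 in WT corneas (adjusted p = 2.1e-05), the difference between genotypes being the one tested above. Both probe sets of Adamts4 and that of Adamts20 were called lower at PN56 in Klf5CN corneas (-1.44, -1.22 and -2.22) and not in WT corneas (-0.52, -0.20 and -0.92), but the difference between genotypes did not pass (adjusted p from 0.24 to 0.66).

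The higher calls at PN56 were 2 of 3 probe sets of Adam10 and 2 of 3 of Adam17 in both genotypes, 2 of 4 of Adam15 in Klf5CN and 1 of 4 in WT corneas, and Adamts1 in WT corneas. Adamts1 differed by 0.76 in Klf5CN corneas (1.69-fold, adjusted p = 0.043), short of 2-fold, and was higher at PN56 in WT corneas (1.56 ± 0.28, 2.96-fold, adjusted p = 0.00043), with a difference between genotypes of -0.80 ± 0.40 (adjusted p = 0.51). Its array values are those given above, and the ages did not overlap in either genotype.

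The probe sets of Adam10 disagreed. Adam10 probe set 1450104_at was at 8.49, 8.47, 8.20 and 6.49 at PN56 against 4.07, 4.39 and 3.42 at PN11 in Klf5CN corneas (3.95 ± 0.41, adjusted p = 5.2e-06). In WT corneas it was at 7.78, 7.91, 7.73 and 7.39 at PN56 against 4.09, 3.32 and 3.32 at PN11 (4.13 ± 0.41, adjusted p = 2.5e-06). The ages lay far apart in both genotypes, with a Present call on all 8 PN56 arrays and on 0 of 6 PN11 arrays. Probe set 1450105_at was at 10.08, 10.14, 9.54 and 8.08 at PN56 against 7.96, 7.48 and 3.99 at PN11 in Klf5CN corneas (2.98 ± 0.70, 7.91-fold, adjusted p = 0.0036), but without PN11 replicate 3 this was 1.74 (3.34-fold, adjusted p = 0.0045), and without PN11 replicate 1 it was 3.72. The WT values were 9.25, 9.28, 9.33 and 9.19 at PN56 against 7.44, 7.32 and 7.19 at PN11 (1.94 ± 0.70, 3.85-fold, adjusted p = 0.037). The ages did not overlap in either genotype, but leaving out any of the 7 WT arrays raised the adjusted p of the WT difference to 0.060 to 0.096, with 1.88 to 2.00 on the log2 scale. In contrast, probe set 1428103_at differed between ages by 0.38 in Klf5CN (1.30-fold, adjusted p = 0.0099) and by 0.09 in WT corneas (adjusted p = 0.52).

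Adam17 showed the same split. Adam17 probe set 1421857_at was at 7.19, 7.33, 7.30 and 5.58 at PN56 against 5.53, 5.08 and 3.32 at PN11 in Klf5CN corneas (2.21 ± 0.47, 4.62-fold, adjusted p = 0.0018), but without PN11 replicate 3 this was 1.55 (2.92-fold, adjusted p = 0.0073). The WT arrays were at 7.40, 7.70, 7.40 and 7.14 at PN56 against 5.11, 4.86 and 5.24 at PN11 (2.34 ± 0.47, 5.06-fold, adjusted p = 0.0010). The estimates for probe set 1421859_at were lower in both genotypes. It was at 8.67, 8.26, 8.49 and 7.84 at PN56 against 7.58, 7.60 and 5.84 at PN11 in Klf5CN corneas (1.31 ± 0.33, 2.48-fold, adjusted p = 0.0057), but without PN11 replicate 3 this was 0.73 (adjusted p = 0.0085), under 2-fold. In WT corneas the values were 8.51, 8.68, 8.53 and 8.39 at PN56 against 7.45, 7.28 and 7.15 at PN11 (1.23 ± 0.33, 2.35-fold, adjusted p = 0.0076). The ages did not overlap in either probe set or genotype. The last, 1421858_at, was at 9.26, 9.13, 9.10 and 9.15 in Klf5CN and 9.25, 9.35, 9.15 and 9.10 in WT corneas at PN56, and at 9.05, 9.18 and 9.44 in Klf5CN and 9.28, 9.01 and 9.08 in WT corneas at PN11. It overlapped between all groups (-0.06 in Klf5CN, adjusted p = 0.70, and 0.09 in WT corneas, adjusted p = 0.57).

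**Figure D4:**
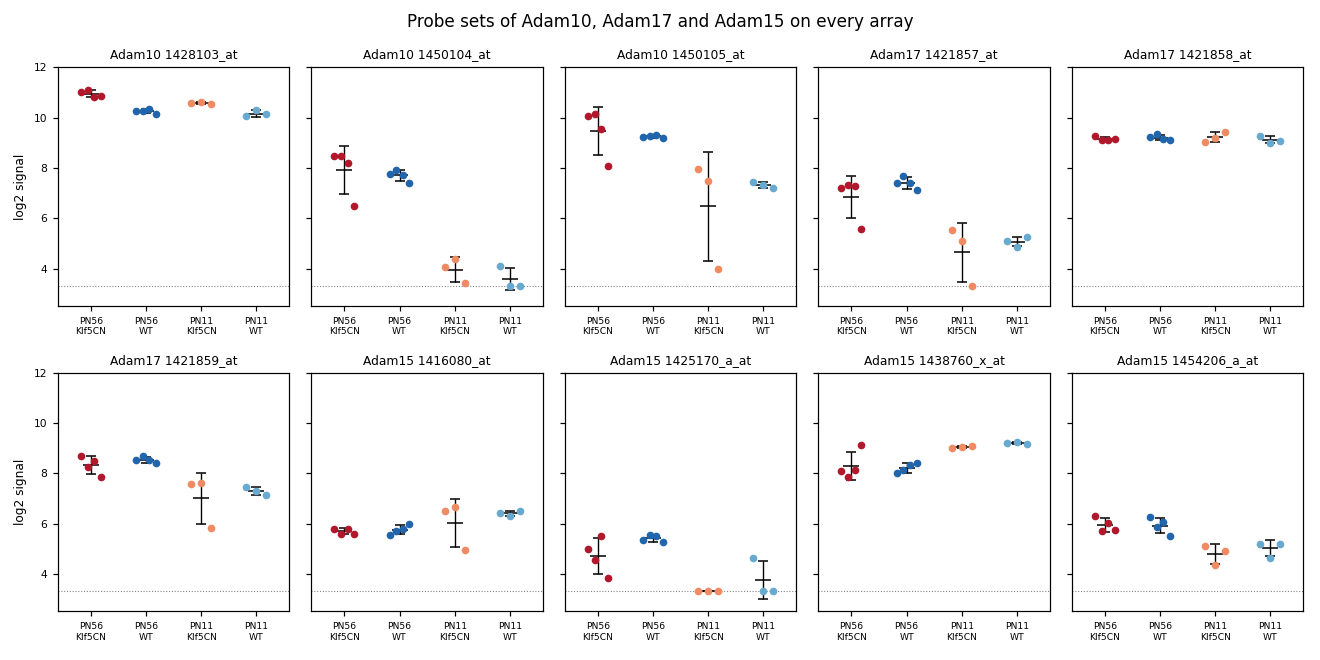
Log2 signal on every array (y axis) of the 3 probe sets of Adam10, 3 of Adam17 and 4 of Adam15, by group (x axis), drawn as in the plot of the called probe sets. Between ages Adam10 1428103_at differs by 0.38 in Klf5CN and 0.09 in WT corneas and Adam17 1421858_at by -0.06 in Klf5CN and 0.09 in WT corneas, while 1450104_at and 1421857_at are higher at PN56, and the Klf5CN array with a high Actb ratio is the lowest PN56 array in both.

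Adam15, a widely expressed Adam found in epithelia and endothelia, had probe sets that moved in opposite directions. Adam15 probe set 1425170_a_at was at 5.0, 4.55, 5.50 and 3.82 at PN56 in Klf5CN corneas, whose 3 PN11 arrays were at the lowest value (1.39 ± 0.37, adjusted p = 0.0074). In WT corneas it was at 5.34, 5.53, 5.50 and 5.26 at PN56 against 4.61, 3.32 and 3.32 at PN11 (1.66 ± 0.37, adjusted p = 0.0021). The ages did not overlap, and both calls were lost with signals under 32 set to 32 (0.12 in Klf5CN and 0.41 in WT corneas). Probe set 1454206_a_at was also higher at PN56 in Klf5CN corneas (1.16, 2.24-fold, adjusted p = 0.0021) and differed by 0.91 in WT corneas (1.87-fold, adjusted p = 0.0095). Probe set 1438760_x_at ran the other way, at -0.76 in Klf5CN (adjusted p = 0.014) and -0.99 ± 0.22 in WT corneas (1.99-fold lower, adjusted p = 0.0024), both short of 2-fold, and 1416080_at differed by -0.34 in Klf5CN and -0.66 in WT corneas (adjusted p = 0.41 and 0.11). The position of each probe set in these transcripts was not given in the sources used, and no probe set could be preferred. Counted once by the probe set with the highest mean signal, 1 gene rose and 14 fell in WT corneas, against 4.37% and 15.6% of 13660 genes.

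On the arrays with a high Actb ratio some of these probe sets were low. On PN56 Klf5CN replicate 4, Adam10 1450104_at and 1450105_at and Adam17 1421857_at and 1421859_at each had the lowest value of the group, and the same 4 were lowest on PN11 Klf5CN replicate 3. The WT arrays had Actb ratios of 0.39 to 0.45 at PN56 and 0.23 to 0.27 at PN11, without overlap, and the part of RNA quality in the differences between ages was not tested.

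Cell type markers moved with age as well. Of 8 keratocyte and stroma markers 7 were lower at PN56 than at PN11 in Klf5CN and 7 in WT corneas, and of 6 blood vessel markers 5 were lower in Klf5CN and 6 in WT corneas. The keratocyte markers summed to 6030 to 30200 at PN56 against 36000 to 40800 at PN11 in Klf5CN corneas and to 6360 to 9800 at PN56 against 37300 to 42900 at PN11 in WT corneas, with none at the lowest value throughout a group. At PN56, 3 of the 8 keratocyte markers were higher and 1 was lower in Klf5CN than in WT corneas. The part of these cells in the Adam and Adamts results was not tested.

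The partners of the proteinases were read from lists. Of 5 tested inhibitors (Timp1, Timp2, Timp3, Reck and A2m), 4 were lower at PN56 than at PN11 in Klf5CN and 5 in WT corneas. The shares of 13660 genes were 13.4% in Klf5CN and 15.6% in WT corneas. The WT differences ran from -1.94 for Timp2 to -1.33 for Timp3, the inhibitor of Adamts4, Adamts5 and Adam17. Timp1 was higher in Klf5CN corneas at PN56 (2.73, adjusted p = 0.0036), and no other inhibitor was called with genotype. Under 2-fold, Timp2 was higher (0.71, adjusted p = 0.011) and Timp3 lower (-0.72, adjusted p = 0.032) in Klf5CN corneas at PN56. Reck was higher at PN11 (0.65, adjusted p = 0.026), also under 2-fold. The 8 sheddase partners were the iRhoms (Rhbdf1 and Rhbdf2) that carry Adam17 to the surface and the tetraspanins (such as Tspan5 and Tspan15) that do so for Adam10. Of these, 0 were called in any of the 5 comparisons. Some differences passed the adjusted p but not the 2-fold limit. In Klf5CN corneas at PN56, Tspan5 (-0.73, adjusted p = 0.0071), Tspan15 (-0.54, adjusted p = 0.0088) and Rhbdf1 (-0.44, adjusted p = 0.013) were lower. Tspan17 was lower in Klf5CN corneas at PN11 (-0.94, adjusted p = 0.027). No sheddase partner was higher with genotype at that adjusted p. Tspan15 was at 0.93 between ages in WT corneas (adjusted p = 7e-05). Of the 4 proprotein convertases that activate the family, Pcsk6 was lower in Klf5CN than in WT corneas at PN56 (-1.15, adjusted p = 0.0041). Pcsk5 was higher in Klf5CN corneas at that age (0.88, adjusted p = 0.042), under 2-fold. Pcsk5 was lower with age in Klf5CN (-1.25, adjusted p = 0.0038) and in WT corneas (-1.75, adjusted p = 0.00026). Pcsk6 was lower with age in Klf5CN (-1.45, adjusted p = 0.00039) and not called in WT corneas (-0.18, adjusted p = 0.59). Among 5 tested Adamts-like genes, whose proteins lack the proteinase domain, Adamtsl3 and Adamtsl4 were higher in Klf5CN corneas at PN11 (1.13 and 1.19, adjusted p = 0.0045 and 0.0039).

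Of 25 tested substrate genes, 7 were higher and 0 lower in Klf5CN corneas at PN56, against 7.1% and 1.63% of 13660 genes. They included Vcan, the versican cut by Adamts1, Adamts5 and Adamts9 (2.03, adjusted p = 0.0039), Comp (1.42, adjusted p = 0.029) and Col3a1, a procollagen (2.91, adjusted p = 0.00033). At PN11, Tnf was higher (1.0, adjusted p = 0.044) and Egf lower (-1.0, adjusted p = 0.014), both close to 2-fold, against 3.8% and 1.48% of genes. With age in Klf5CN corneas 0 were higher and 9 lower, against 4.8% and 13.4% of genes. In WT corneas 4 were higher and 10 lower, against 4.37% and 15.6% of genes, with Fbn2 (-4.95) and Vcan (-2.98) among the lower. The 4 higher in WT corneas are released by Adam10 or Adam17: Tnf differed by 0.75 in Klf5CN and 2.07 in WT corneas, Hbegf by 0.89 in Klf5CN and 1.67 in WT corneas, Ereg by 0.73 in Klf5CN and 1.64 in WT corneas, and Btc by 0.44 in Klf5CN and 1.35 in WT corneas. The difference between genotypes did not pass in any of these 4 (-1.32 to -0.78, adjusted p from 0.16 to 0.58). Other listed genes with shed products did not rise past the threshold in WT corneas. Il6ra was lower (-1.68, adjusted p = 0.0018). The rest were not called, from -0.62 for Cx3cl1 to 0.67 for L1cam.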

How the data were processed

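RNA from whole corneas was hybridised to Affymetrix MG 430 2 arrays, 1 mouse per array. The deposited intensity values are signals made by the authors with GCOS 1.4 at its default settings, each array scaled to a 2% trimmed mean of 150. The 2 deposited tables held the same 631414 values, so the table with Present calls (given as the number of arrays per group) was used. The 3 columns of pairwise changes computed by the authors were not used.

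Signals under 10 were set to 10 (29.7% of all values) and log2-transformed without further scaling. Probe sets above 20 on at least 3 arrays (29416 of 45101) were fitted with limma 3.58.1 in R 4.3.3 (lmFit, eBayes with trend), with the 4 groups in 1 model, and p-values were adjusted by Benjamini-Hochberg over all 29416 probe sets. Folds are on the scale of these floored values, so low signals understate them. No fold is given where the dimmer group had no Present call. SD and SE are over mice. The fit was tested on simulated data. The number of arrays limits the precision: 3 against 3 arrays cannot go below a two-sided exact p of 0.1.

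Members are all probe sets whose single symbol follows the rule given in the report, with symbols from GEO's platform annotation. Values on every array are given for probe sets called with genotype, for the called probe sets with the largest changes (up to 10 in each direction) with age in WT corneas, and for all tested probe sets of Adam10, Adam17 and Adamts3. Marker and partner lists were read by 1 probe set a gene, that with the highest mean signal. The members, the lists and the tests were chosen with earlier results of these data known. Promoter sequences are from RefSeq (GRCm38.p6), and were at hand for 20 of the 43 genes. Figures and tables were made with pandas 2.3.3 and matplotlib 3.10.9 in Python 3.11.15.

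Alternatives were a lowest signal of 32, log2 of signal plus 16, quantile normalization, subtraction of array medians, no filter and a filter at 64, no minimum fold, robust moderation, a fit of the compared groups alone, a replicate block, the Actb ratio as covariate, each array left out, genes counted once, and the rank test of the study's methods (Mann-Whitney without adjustment, more than 2-fold, at least 3 Present calls in the higher group). The study's further criterion, on pairwise changes between arrays, was left out, so these counts are not those of its full rule. At PN11 the limit was the smallest possible p of 0.1, which any probe set without overlap between the groups reaches. Leaving out both arrays with a high Actb ratio was added after seeing the data.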

Additional observations from a re-analysis of the deposited data

Results flagged for a closer look

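Among 49 groups of 4 arrays in the named probe sets, 6 held an array far from the other 3 by Dixon's test. In 3 of these 6 the other arrays were tied at the lowest value, so that any higher value stands apart, and the rate of about 5% of groups that chance gives does not apply to them. In the PN56 Klf5CN group, replicate 4 was far below the others for Adam10 probe set 1450104_at (6.49, against 8.20 to 8.49) and for Adam17 probe set 1421857_at (5.58, against 7.19 to 7.33), and it is one of the arrays with a high Actb ratio (log2 1.4). The same array was at 3.51 for Adam33 probe set 1444628_at, where the other 3 were at the lowest value of 3.32. In the PN56 WT group, replicate 4 was at 3.63 for Adam33 probe set 1444628_at and replicate 3 at 4.12 for Adamts12 probe set 1439827_at, each with the other 3 arrays at 3.32. Replicate 2 of that group was at 5.76 for Adam28 probe set 1460427_a_at, against 5.51 to 5.54.

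The Klf5CN effect on Adamts18 probe set 1437574_at differed between the ages by 2.24 on the log2 scale (limma, adjusted p = 0.016), with no call at PN56 (0.43) and a lower signal in Klf5CN corneas at PN11 (-1.82). No PN56 array had a Present call, and all 4 WT arrays of that age were at the lowest value. A lower signal in Klf5CN corneas could therefore not be measured at PN56.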

How the results depend on the processing

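No count changed direction. At PN56, the 10 probe sets higher in Klf5CN corneas were 2 with signals under 32 set to 32, 4 with log2 of signal plus 16, 6 with no filter, 4 in a fit of the compared groups alone, and 6 to 11 with each array left out in turn. At PN11, the 5 higher probe sets were 3 with no filter, 10 by the rank test of the study's methods without its criterion on pairwise changes and 2 to 7 with each array left out, and the 1 lower probe set was 0 with signals under 32 set to 32 and 0 with the filter at 64. The 1 difference between ages was 0 with signals under 32 set to 32, 0 with signal plus 16, 0 with the filter at 64 and 0 to 1 with each array left out. Both results are from Adamts18 probe set 1437574_at, whose highest signal was 48.4. With the filter at 64 it was not tested, so the counts of 0 there do not come from a failed test. With age and each array left out, the 16 lower probe sets were 14 to 20 in Klf5CN and 15 to 17 in WT corneas, and the 6 higher ones 5 to 6 in Klf5CN and 5 to 7 in WT corneas. With signals under 32 set to 32, 9 were lower in WT corneas. With genes counted once by their brightest probe set, 0 genes were higher with age in Klf5CN and 1 in WT corneas.

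With the replicate block, the counts were 9 higher and 0 lower at PN56, 6 and 1 at PN11, 6 and 17 with age in Klf5CN and 7 and 17 in WT corneas, and 1 for the difference between ages. The numbers were not taken to pair the mice, since arrays of the same number correlated at -0.20 to 0.19 in their deviations from the group means. Without both arrays with a high Actb ratio, a choice made after seeing the data, the counts were 7 and 0 at PN56, 5 and 1 at PN11, 5 and 19 with age in Klf5CN and 6 and 16 in WT corneas. Subtracting array medians shifted the median of all probe sets at PN56 by -0.23, and there 3 calls were lost: Adam19 (0.99), Adam22 (0.78) and Adamts9 probe set 1437785_at (0.94). Of 54 named calls over the 5 comparisons, 29 were kept under every alternative run, 41 with each array left out, and 0 reversed. The cause of these losses was not tested, but setting signals under 32 to 32 by construction removes differences that lie below that level.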
